A study of Homo sapiens with 16 samples.

Results

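UGT2B7, UGT2B10, UGT2B11, UGT2B15, UGT2B17 and UGT2B28 are members of the UDP-glucuronosyltransferase 2B family, measured here in a prostate cancer cell line. Every array probe annotated to 1 of the 6 symbols was taken, which gave 11 of 48794 probes on the DHT-set arrays and 11 of 47231 on the DEX-set arrays. They stand for 6 of 18846 and 6 of 20039 genes that have a probe with 1 symbol. UGT2B17 had 4 probes, UGT2B11 and UGT2B15 had 2 each, and the other members had 1 each. A probe was tested where its detection p was under 0.01 on at least 2 of the 8 arrays of its set, and 6 of 11 member probes passed among DHT-set arrays and 7 of 11 among DEX-set arrays, so counts below cover only those.

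Total RNA of LNCaP-1F5, a derivative of the LNCaP prostate cancer line that carries an introduced rat glucocorticoid receptor, was hybridized to 16 Illumina bead arrays. In both sets the titles name cells after a siRNA pool against FoxA1 (siFoxA1) or parental cells without it, and all cells were kept in charcoal-stripped medium for 3 days. The DHT set (array version 3) has 2 arrays each titled DHT parental, DHT siFoxA1, vehicle parental and vehicle siFoxA1, with 5-alpha-dihydrotestosterone at 100 nM for 24 h. The DEX set (array version 4) has 2 arrays each titled DEX parental, DEX siFoxA1, vehicle parental and vehicle siFoxA1, with dexamethasone at 100 nM for 24 h.

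UGT2B enzymes of the endoplasmic reticulum transfer glucuronic acid from UDP-glucuronic acid to hydroxyl groups of steroids, bile acids and drugs, which makes them water-soluble. In prostate cells UGT2B15 and UGT2B17 conjugate dihydrotestosterone and its metabolites androsterone and androstanediol, which ends their action on the androgen receptor, and UGT2B28 also acts on androgens. In LNCaP cells androgen is known to lower UGT2B15 and UGT2B17 mRNA, and FOXA1, a forkhead pioneer factor, is known to bind their promoters. UGT2B7 acts on many drugs and steroids and is most abundant in liver and kidney, UGT2B10 is known for N-glucuronidation of amines such as nicotine, and the substrates of UGT2B11 are less well defined.

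The 6 genes lie in a cluster on chromosome 4 in the order UGT2B17, UGT2B15, UGT2B10, UGT2B7, UGT2B11 and UGT2B28 in the RefSeq annotation (GRCh38.p14). RefSeq promoter sequence was at hand for 4 of the 6, and the 250 bases before the start of transcription are shown because FOXA1 is the siRNA target of the study and its family's motif can be looked for in them. Each line reads 5′ to 3′ on the strand of the gene. Capitals mark the forkhead motif (TGTTTAC or TATTTAC, on either strand) and the androgen receptor half-site (AGAACA, on either strand). The intervals are chr4:68670653-68670902 (minus strand) for UGT2B15, chr4:69214749-69214998 (minus strand) for UGT2B11, chr4:68815744-68815993 (plus strand) for UGT2B10 and chr4:69096224-69096473 (plus strand) for UGT2B7.
UGT2B15: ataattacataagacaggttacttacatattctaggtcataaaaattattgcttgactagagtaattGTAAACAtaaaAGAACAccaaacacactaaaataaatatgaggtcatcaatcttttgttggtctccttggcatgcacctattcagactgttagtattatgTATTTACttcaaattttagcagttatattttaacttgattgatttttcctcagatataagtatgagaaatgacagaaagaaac
UGT2B11: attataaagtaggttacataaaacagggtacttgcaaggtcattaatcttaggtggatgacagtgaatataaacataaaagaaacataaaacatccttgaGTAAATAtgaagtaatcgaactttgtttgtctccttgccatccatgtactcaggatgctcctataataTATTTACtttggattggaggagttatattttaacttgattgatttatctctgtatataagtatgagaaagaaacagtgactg
UGT2B10: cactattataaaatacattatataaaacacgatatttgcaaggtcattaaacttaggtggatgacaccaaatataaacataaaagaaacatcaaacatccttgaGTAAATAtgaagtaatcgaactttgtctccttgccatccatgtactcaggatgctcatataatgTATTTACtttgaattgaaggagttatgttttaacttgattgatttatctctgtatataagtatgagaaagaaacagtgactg
UGT2B7: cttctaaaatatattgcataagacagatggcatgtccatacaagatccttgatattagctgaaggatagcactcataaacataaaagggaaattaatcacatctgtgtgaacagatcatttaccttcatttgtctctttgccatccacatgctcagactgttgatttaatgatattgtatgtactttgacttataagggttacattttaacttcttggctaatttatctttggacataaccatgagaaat

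UGT2B15, UGT2B11 and UGT2B10 each hold 2 forkhead matches, and UGT2B7 holds none in this window. In all 3 genes with matches, 1 lies on the gene's strand with its first base 83 bases before the start in UGT2B15 and 82 bases before it in UGT2B11 and UGT2B10. The other lies on the opposite strand, beginning 183 bases before the start in UGT2B15, 150 in UGT2B11 and 146 in UGT2B10. Of 35116 promoters cut to the same length, 5.27% hold a forkhead match. The androgen receptor half-site is found in UGT2B15 only, beginning 172 bases before the start, and 12.4% of all promoters hold it. The HNF1 half-site GTTAAT, searched on either strand as well and held by 6.23% of promoters, has no match in these 4 windows. The windows of UGT2B10 and UGT2B11 are 90.2% identical over their alignment, against 71.4% for UGT2B11 and UGT2B15 and 65.1% for UGT2B11 and UGT2B7. The transcripts are close copies as well. Probe sequences were not used here, so a probe may take up transcripts of other members, whose part in its signal was not tested.

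Levels are given on the log2 scale after background correction and quantile normalization within a set, so they compare arrays of 1 set for 1 probe. DHT-set arrays had between 11218 and 12886 detected probes, the dimmest of them at levels of 5.80 to 6.31. DEX-set arrays had between 15933 and 17168, the dimmest at 5.56 to 5.81. All 9 measured markers of luminal prostate epithelium were detected on some array in both sets. In the DHT set no basal epithelium marker (KRT5, KRT14, KRT15) and no liver marker (ALB, APOA1, APOB, TTR, SERPINA1) was detected, and in the DEX set 1 of 3 basal and 3 of 6 liver markers were detected on some array. Of 5 fibroblast markers, COL1A1 was detected on some array of the DHT set, and COL1A1, COL3A1 and DCN on some array of the DEX set.

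The siRNA target FOXA1 went against the titles in the DHT set, and FKBP5, a gene induced by both androgen and glucocorticoid receptors, in both sets. In the DHT set FOXA1 lay between 12.24 and 12.37 on the 4 arrays titled DHT, against 13.54 to 13.68 on the 4 titled vehicle, and it differed by 0.06 ± 0.08 (SE) between siFoxA1 and parental titles. FKBP5 in that set lay between 12.14 and 13.16 on replicate 2 arrays, against 7.76 to 8.22 on replicate 1 arrays. In the DEX set FKBP5 lay between 13.80 and 13.89 on arrays titled siFoxA1, against 9.21 to 9.39 on arrays titled parental, under DEX and vehicle titles alike. FOXA1 in that set was lower on replicate 2 than on replicate 1 arrays by 1.52 on the log2 scale, and within each number lower on siFoxA1 titles than on parental titles. Arrays are therefore named by what they are labelled, and directions below are directions between labels. Arrays that differed only in the siFoxA1 title of the DHT set, or only in the hormone title of the DEX set, were nearest to each other over all probes (Pearson r of 0.986 to 0.988 and 0.987 to 0.991), while arrays of 1 group with different numbers had r of 0.957 to 0.968 and 0.963 to 0.969. Differences were tested first between the labelled groups and then by title and replicate number, with the uninformative title of each set left out. That second division was chosen with results of these data known, and because its paired arrays are each other's nearest, its standard errors are small. Its groups of 2 hold a siFoxA1 and a parental array (DHT set) or a DEX and a vehicle array (DEX set), not biological duplicates. Its p-values thus measure scatter within such pairs.

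UGT2B17 was the member with the clearest signal, and in the DHT set it was lowest on arrays titled DHT and lower on replicate 2 than on replicate 1 under both titles. Its probe ILMN_1808677 was detected on all 8 arrays. It had levels of 6.81 (parental) and 6.62 (siFoxA1) on DHT titles of replicate 2, against 9.55 (parental) and 9.31 (siFoxA1) on vehicle titles of replicate 2. Under replicate 1 it had 8.87 (parental) and 8.46 (siFoxA1) on DHT titles, against 11.90 (parental) and 12.09 (siFoxA1) on vehicle titles. In scanner signal before correction these are 209 and 165 on DHT titles against 956 and 819 on vehicle titles for replicate 2, and 491 and 417 on DHT titles against 4391 and 4324 on vehicle titles for replicate 1. The 4 pairs do not overlap, and within each pair the siFoxA1 and parental titles differ by less than 0.5. In RNA of whole cultures, fewer cells with a transcript and less of it per cell cannot be told apart. The second UGT2B17 probe, ILMN_1752214, had 4.89 and 5.35 on DHT titles against 7.74 and 7.55 on vehicle titles in replicate 2, and 7.23 and 6.17 on DHT titles against 10.18 and 9.96 on vehicle titles in replicate 1.

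UGT2B15, the closest relative of UGT2B17 in substrates, followed the same division nearer to the detection limit. Probe ILMN_2048414 was not detected on the 4 replicate 2 arrays, at 5.05 (parental) and 4.68 (siFoxA1) on DHT titles against 5.90 and 5.84 on vehicle titles. In replicate 1 it had 5.94 (parental) and 6.30 (siFoxA1) on DHT titles, against 8.44 and 8.57 on vehicle titles. The probe was thus clearly above background only on the vehicle titles of replicate 1.

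UGT2B11 and UGT2B28 shared the lower level on DHT titles, but UGT2B28 and UGT2B11 probe ILMN_2162819 ran the other way by replicate number. UGT2B11 probe ILMN_2162819 had 7.12 (parental) and 6.41 (siFoxA1) on DHT titles of replicate 2, against 9.80 and 9.49 on vehicle titles of replicate 2. In replicate 1 it had 5.19 and 5.54 on DHT titles, both not detected, against 8.14 and 7.99 on vehicle titles. Its highest arrays were therefore the vehicle titles of replicate 2, where UGT2B17 and UGT2B15 were well below their maximum. UGT2B28 (ILMN_1781859) was not detected on the 4 DHT titles, with levels from 4.67 to 5.24, against 7.46 and 7.39 on vehicle titles of replicate 2 and 6.19 and 5.26, the lower of them not detected, on vehicle titles of replicate 1. The second UGT2B11 probe, ILMN_1810233, was not detected on the 4 DHT titles (4.85 to 6.02), against 7.39 and 7.35 on vehicle titles of replicate 2 and 7.10 and 6.91 on vehicle titles of replicate 1.

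**Figure D1:**
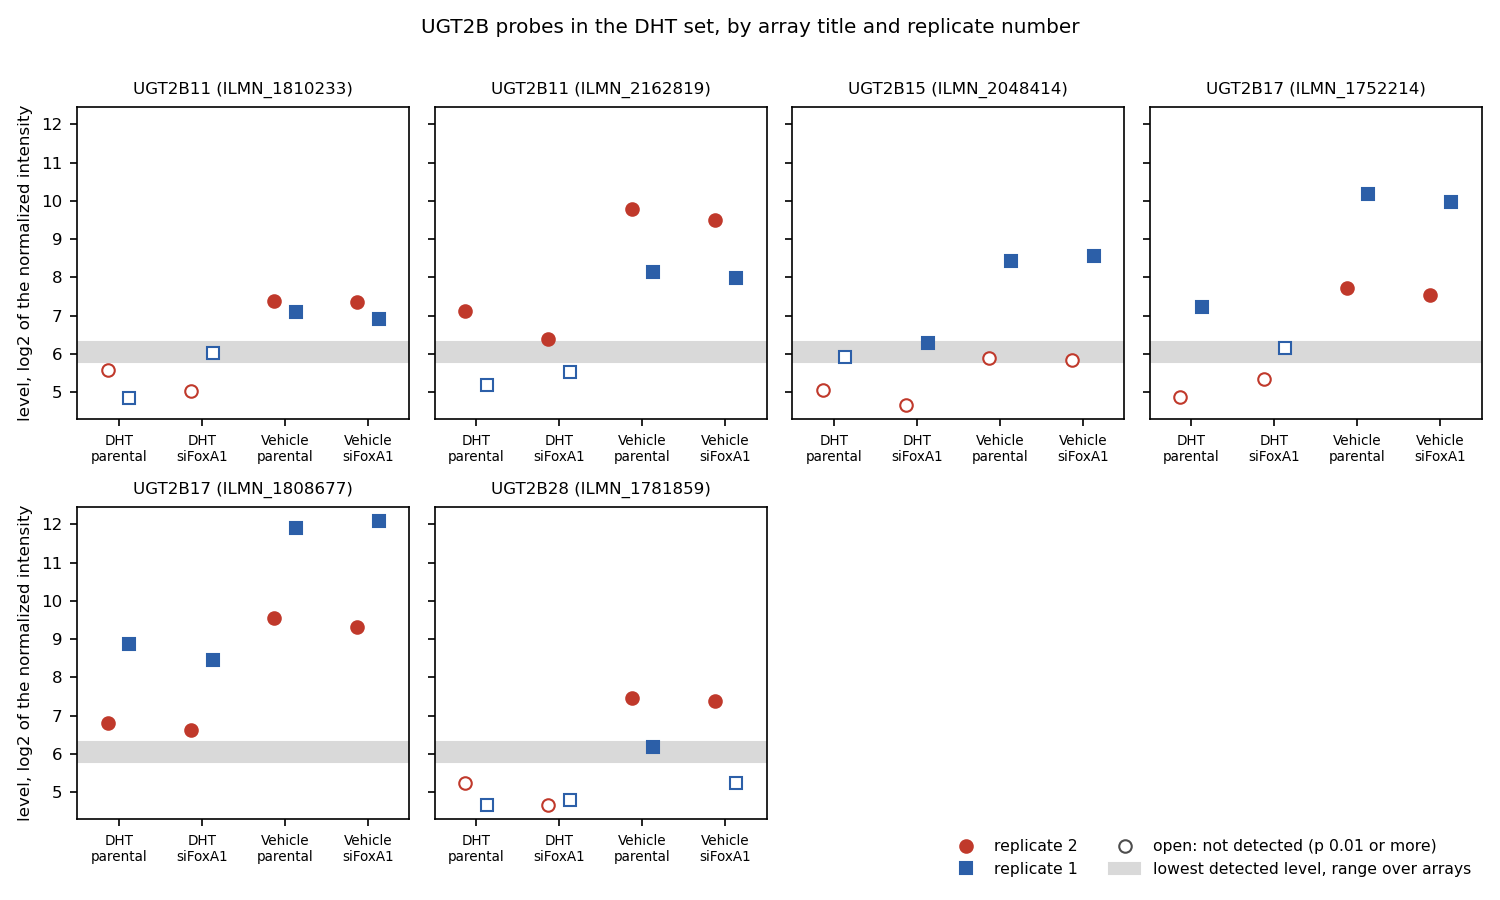
Level (log2 of the normalized intensity) of the 6 tested UGT2B probes on the 8 arrays of the DHT set, by array title; red circles are replicate 2, blue squares replicate 1, open symbols arrays where the probe was not detected, and the grey band spans the lowest detected level over the arrays. UGT2B17 and UGT2B15 have their highest points on vehicle titles of replicate 1, and UGT2B11 (ILMN_2162819) and UGT2B28 on vehicle titles of replicate 2.

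Between labelled groups of 2 arrays, every tested member probe was lower on DHT than on vehicle titles, with differences of -2.90 to -1.67 on the log2 scale for parental titles and of -3.16 to -1.59 for siFoxA1 titles. None of the 6 passed limma's test with Benjamini-Hochberg adjustment over all 13094 probes in either comparison (lowest adjusted p 0.103 and 0.164), where 0.634% and 0.802% of all probes did. With the replicate number as a block, which pairs arrays that deviated together, 6 of 6 passed for parental titles and 5 of 6 for siFoxA1 titles, where 7.44% and 7.92% of all probes did. In each comparison 3 of the 6 differences rest on DHT-titled groups with no detected array. UGT2B28 and UGT2B11 probe ILMN_1810233 were detected on no DHT-titled array, so the filter left little room for a call as higher. At an unadjusted p under 0.05, 5 of 6 passed for parental and 4 of 6 for siFoxA1 titles, and for 5 of 6 in each the groups did not overlap, with DHT titles below (22.4% of all probes in each comparison). In this division the replicate numbers count as spread, with standard errors of 0.42 to 1.17. The siFoxA1 minus parental difference ranged from -0.36 to 0.09 over the 6 probes and the hormone by siFoxA1 interaction from -0.28 to 0.43. In neither did limma call a member or any other probe (0% of all probes), and 0 of 6 members had an unadjusted p under 0.05 in either.

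By title within replicate number, UGT2B members fell on DHT titles under both numbers. In replicate 1, 5 of 6 passed as lower, where 7.74% of all probes did. In replicate 2, 6 of 6 passed as lower, where 11.6% of all probes did. UGT2B28 and UGT2B11 probe ILMN_1810233 were detected on no DHT-titled array and passed the filter through vehicle titles alone. A call as higher on DHT titles was hardly open to them. Without DHT parental replicate 1, 4 of 6 passed in replicate 1, as UGT2B11 probe ILMN_1810233 was lost, and UGT2B15 was lost in replicate 2 without vehicle parental, vehicle siFoxA1 or DHT siFoxA1 replicate 2. For UGT2B17 (ILMN_1808677) the DHT minus vehicle difference was -3.33 ± 0.18 (SE, n = 2 and 2, limma adjusted p = 5.96e-13) in replicate 1 and -2.72 ± 0.18 (adjusted p = 2.24e-11) in replicate 2. Each group of 2 here is a siFoxA1 and a parental array of 1 number, so these p-values measure scatter within such pairs. Between labelled groups of duplicates the same probe had limma adjusted p of 0.376 on parental and 0.315 on siFoxA1 titles. UGT2B15 differed by -2.39 ± 0.29 in replicate 1 (limma adjusted p = 1.08e-06), where 1 of 2 DHT-titled arrays was detected. In replicate 2 both of its groups were not detected, so no fold is given although the test passed (limma adjusted p = 0.0136). UGT2B11 (ILMN_2162819) was at least 3.79-fold lower on DHT titles in replicate 1, a bound because neither DHT-titled array was detected, and differed by -2.88 ± 0.25 in replicate 2. UGT2B28 was at least 2.22-fold lower on DHT titles in replicate 2 (limma adjusted p = 1.2e-05), and did not pass in replicate 1 (adjusted p = 0.0669). No fold is given for replicate 1, as neither DHT-titled array was detected and the bound fell under 1. FOXA1 was lower on the same DHT titles, by 1.29 ± 0.11 in replicate 1 and 1.34 ± 0.11 in replicate 2 on the log2 scale, and its part in these differences was not tested.

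Replicate number divided the family. Over both titles of the DHT set, replicate 2 minus 1 was -2.26 ± 0.13 for UGT2B17 probe ILMN_1808677 (limma adjusted p = 7.21e-13) and -2.0 ± 0.20 for ILMN_1752214, and UGT2B15 was at least 2.21-fold lower, a bound because none of its 4 replicate 2 arrays was detected. The difference was 1.49 ± 0.18 for UGT2B11 probe ILMN_2162819 (limma adjusted p = 5.12e-07) and 0.96 ± 0.25 for UGT2B28 (adjusted p = 0.00708), whose value was 0.73 (adjusted p = 0.067) without vehicle siFoxA1 replicate 1. So 5 of 6 passed, 3 lower and 2 higher, where 22.4% of all probes passed, 11.8% lower and 10.6% higher. Among them UGT2B15 had passed the filter through replicate 1 arrays alone. The sixth, UGT2B11 probe ILMN_1810233, differed by 0.12 ± 0.24 (adjusted p = 0.769), so that the 2 probes of UGT2B11 disagree on whether replicate number matters. On vehicle titles alone, where most members were detected, replicate 2 minus 1 was -2.56 ± 0.18 for UGT2B17 (ILMN_1808677), 1.58 ± 0.25 for UGT2B11 (ILMN_2162819) and 1.70 ± 0.36 for UGT2B28 (limma adjusted p at most 0.00177 for these 3, and 11.1% of all probes passed). On DHT titles alone, where 16.4% of all probes passed, UGT2B17 differed by -1.95 ± 0.18 and UGT2B11 was at least 1.54-fold higher on replicate 2, and for UGT2B28 no fold is given, as none of its arrays was detected there. FKBP5 moved with replicate number by 4.58 ± 0.11, and its part in the differences was not tested.

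The change between titles was not shown to depend on replicate number. The title by number interaction passed for 0 of 6 member probes with limma (4.71% of all probes), although 4 of 6 had an unadjusted p under 0.05. The lowest adjusted p was that of UGT2B15, 0.0505, for an interaction of 1.38 ± 0.41. UGT2B28 had -1.48 ± 0.51 (adjusted p = 0.105) and UGT2B17 (ILMN_1808677) 0.61 ± 0.25 (adjusted p = 0.203). For UGT2B15 and UGT2B28 the values rest on arrays below detection. With an offset of 50 or without background correction 4 of 6 members passed, UGT2B15 and UGT2B17 with a smaller drop on DHT titles in replicate 2 and UGT2B28 with a larger one, so the count of 0 depends on how dim signals are treated.

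In the DEX set all 7 tested UGT2B probes were lower on replicate 2 than on replicate 1, most of them down to the detection limit. UGT2B17 probe ILMN_1808677 had 5.55 (DEX) and 5.63 (vehicle) on siFoxA1 titles of replicate 2, against 7.46 (DEX) and 7.51 (vehicle) on parental titles of replicate 2. In replicate 1 it had 10.32 and 10.13 on siFoxA1 titles, against 11.24 and 11.24 on parental titles. DEX and vehicle titles of the same siRNA title and number thus lay close together, and the 4 pairs did not overlap. Probe ILMN_1752214 had 5.23 and 5.74 on siFoxA1 against 6.61 and 6.36 on parental titles in replicate 2, and 9.48 and 9.27 against 10.38 and 10.31 in replicate 1. A further UGT2B17 probe, ILMN_2373670, was not detected in replicate 2 (4.47 to 4.68), against 5.74 and 5.51 on siFoxA1 titles and 6.55 and 6.96 on parental titles of replicate 1.

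UGT2B15 (ILMN_2048414) was detected on 1 of 4 replicate 2 arrays, the DEX parental one at 5.85, with the other 3 between 4.49 and 4.91. In replicate 1 it had 7.56 (DEX) and 7.66 (vehicle) on siFoxA1 titles, against 8.43 and 8.70 on parental titles. UGT2B11 probe ILMN_1810233 had 4.94 to 5.75 in replicate 2, with 1 of 4 arrays detected, against 8.27 to 8.94 in replicate 1. Its other probe, ILMN_2162819, had 5.08 to 5.56 in replicate 2, with no array detected, against 6.32 to 6.94 in replicate 1. UGT2B10 (ILMN_1742444) was not detected on replicate 2 arrays (4.65 to 5.15), against 5.66 and 6.01 on siFoxA1 titles and 6.48 and 6.89 on parental titles of replicate 1. Each of these probes had its highest levels on the parental titles of replicate 1, the arrays with the highest FOXA1.

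**Figure D2:**
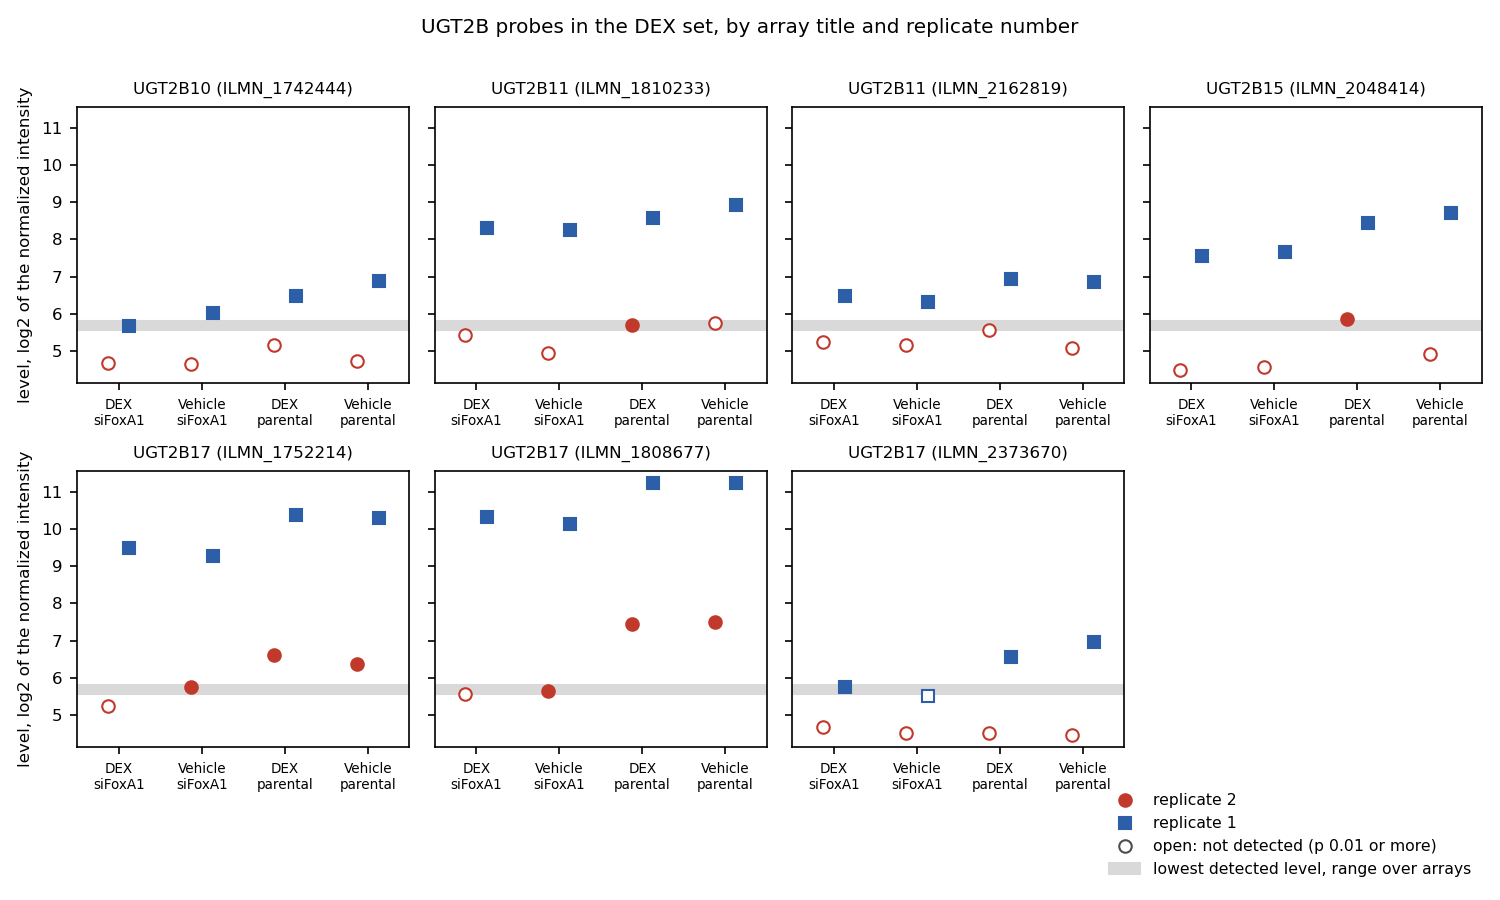
Level (log2 of the normalized intensity) of the 7 tested UGT2B probes on the 8 arrays of the DEX set, with symbols and band as in the plot of the DHT set. Every replicate 1 point lies above every replicate 2 point of its probe, and in replicate 1 the parental titles lie above the siFoxA1 titles.

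Over all 4 against 4 arrays, replicate 2 minus 1 passed as lower for 7 of 7 probes, where 16.4% of all 18391 probes did, and none of the 7 overlapped between numbers (8.01% of all probes lay below without overlap). The difference was -4.20 ± 0.10 for UGT2B17 probe ILMN_1808677 (limma adjusted p = 5.06e-17), -3.88 ± 0.14 for ILMN_1752214, -3.13 ± 0.20 for UGT2B15 and -3.07 ± 0.16 for UGT2B11 probe ILMN_1810233. UGT2B11 probe ILMN_2162819 was at least 1.91-fold lower, UGT2B10 at least 1.46-fold lower and UGT2B17 probe ILMN_2373670 at least 1.39-fold lower on replicate 2. None of these last probes was detected on a replicate 2 array, so they passed the filter through replicate 1 alone. A call as higher was hardly open to them, and the counts are not independent of the filter. On siFoxA1 titles alone and on parental titles alone, 7 of 7 passed as lower as well (11% and 11.4% of all probes). UGT2B10, both UGT2B11 probes, UGT2B15 and UGT2B17 probe ILMN_2373670 had no detected replicate 2 array on siFoxA1 titles. A call as higher was hardly open to them there. On siFoxA1 titles UGT2B17 probe ILMN_2373670 was detected on 1 array, of replicate 1, and no fold is given because its bound was 0.96. UGT2B11 ILMN_2162819, which was higher on replicate 2 in the DHT set, was lower on replicate 2 here; the sets were normalized separately and the change between them was not tested. FOXA1 was lower on replicate 2 by 1.52 ± 0.06 on the log2 scale and FKBP5 differed by 0.00 ± 0.07.

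The 2 bright UGT2B17 probes and UGT2B15 passed as lower on siFoxA1 than on parental titles within each number, the UGT2B15 calls depending on single arrays. In replicate 1, 4 of 7 probes passed as lower, where 15.6% of all probes did: UGT2B17 with -1.02 ± 0.15 (ILMN_1808677, limma adjusted p = 2.17e-05), -0.97 ± 0.19 (ILMN_1752214) and -1.13 ± 0.34 (ILMN_2373670), and UGT2B15 with -0.96 ± 0.29 (adjusted p = 0.0157). Without vehicle parental, vehicle siFoxA1 or DEX siFoxA1 replicate 1, 2 of 7 passed in place of 4, the bright probes ILMN_1808677 and ILMN_1752214. UGT2B15 was also lost without DEX parental replicate 1 (limma adjusted p = 0.0543) and with the authors' values floored at 16 (adjusted p = 0.0708). UGT2B10 differed by -0.85 ± 0.33 (adjusted p = 0.0653) and the 2 UGT2B11 probes by -0.48 ± 0.23 and -0.50 ± 0.29, which did not pass, although siFoxA1 titles lay below parental titles without overlap for all 7 probes (38.1% of all probes). In replicate 2, 3 of 7 passed as lower, where 17.9% of all probes did, and siFoxA1 titles lay below without overlap for 5 of 7 (35.1% of all probes). UGT2B17 probe ILMN_2373670, not detected in either group there, differed by 0.11 (adjusted p = 0.843). The 3 that passed were UGT2B17 with -1.89 ± 0.15 (ILMN_1808677, limma adjusted p = 2.48e-09) and -1.0 ± 0.19 (ILMN_1752214), and UGT2B15 (adjusted p = 0.0277). For UGT2B15 no fold is given, as no siFoxA1-titled array was detected and the bound fell under 1. That last call was lost (adjusted p = 0.354) without DEX parental replicate 2, the 1 array that was detected, and without either siFoxA1-titled array of replicate 2 (limma adjusted p of 0.0719 and 0.0957). With an offset of 50, with the authors' values or with no filter on dim probes it did not pass either. FOXA1 was lower on the same siFoxA1 titles, by 0.71 ± 0.09 in replicate 1 and 1.29 ± 0.09 in replicate 2, and FKBP5 was higher by 4.56 ± 0.10 and 4.54 ± 0.10. Neither gene's part was tested.

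The siFoxA1 title by replicate number interaction passed for 1 of 7 members, UGT2B17 probe ILMN_1808677, where 3.86% of all probes passed. It was -0.88 ± 0.21 (limma adjusted p = 0.0168), a larger drop in replicate 2. The other bright UGT2B17 probe, ILMN_1752214, had an interaction of -0.03 ± 0.27 (adjusted p = 0.976), and without background correction that of ILMN_1808677 was 0.03. The call was also lost without vehicle parental, DEX parental or DEX siFoxA1 replicate 1 (limma adjusted p between 0.0896 and 0.139). In replicate 2 both probes lay at or near the lowest detected level on siFoxA1 titles, so the drop there has a floor.

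Between labelled groups of the DEX set, the hormone titles gave no call. DEX minus vehicle ranged from -0.20 to 0.34 over the 7 probes for parental titles and from -0.16 to 0.25 for siFoxA1 titles, with standard errors of 0.76 to 2.16 because replicate numbers count as spread. With any 1 array of the compared title left out, the largest member difference grew under either title, to at most 2.44 in size (without DEX siFoxA1 replicate 2), since 1 array of a number was then set against arrays of both numbers. The interaction of both titles ranged from -0.42 to 0.45. In these 3 comparisons limma called no member and no other probe (0% of all probes), and no member had an unadjusted p under 0.05. The siFoxA1 minus parental difference over both numbers ranged from -1.45 to -0.31 and passed for 0 of 7 members, with 0 at an unadjusted p under 0.05, where 11% of all probes passed. With the replicate number as a block 4 of 7 passed, where 32.7% of all probes did.

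**Figure D3:**
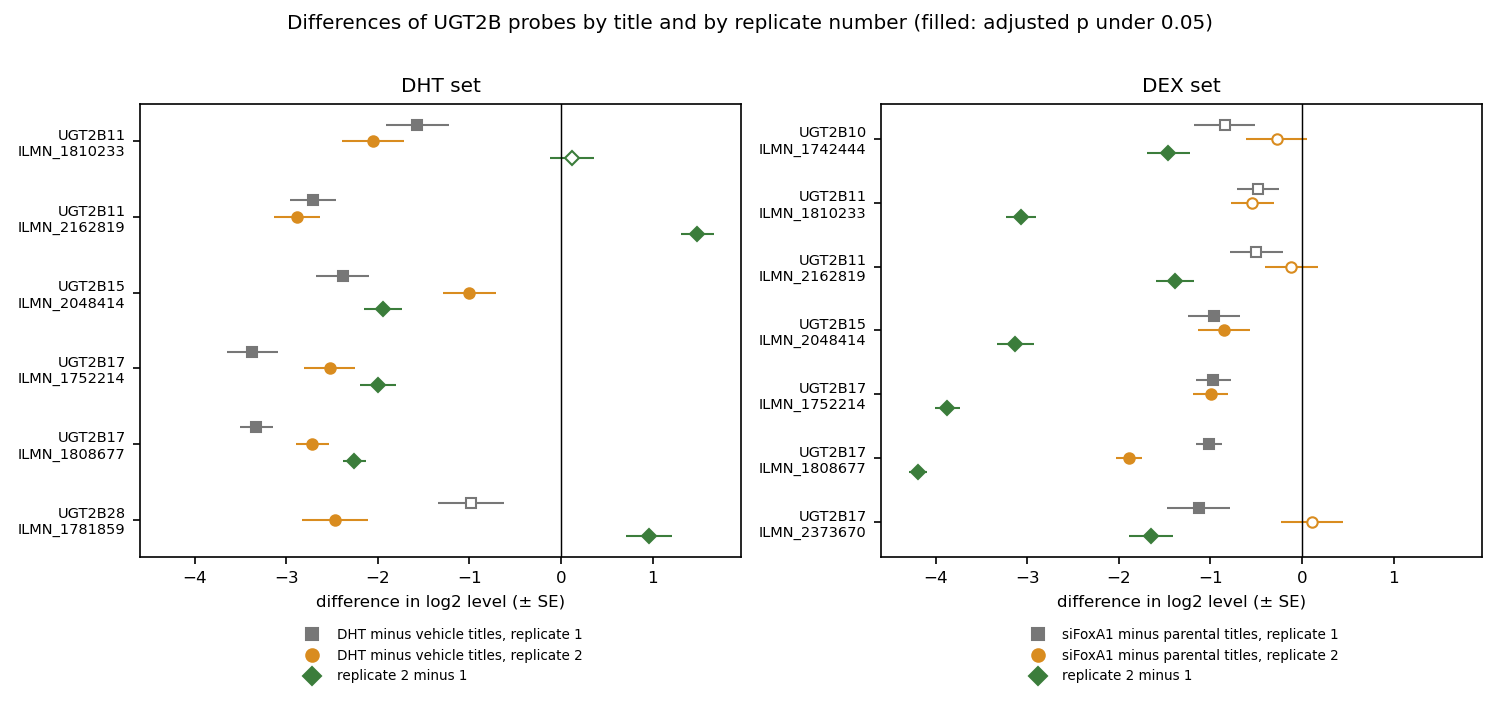
Differences in log2 level (points, with bars of 1 SE) of each tested UGT2B probe, by title within replicate number (grey squares and orange circles) and by replicate number (green diamonds), in the DHT set (left) and DEX set (right); filled symbols passed an adjusted p of 0.05. Green diamonds lie right of 0 for UGT2B11 and UGT2B28 on the left, where UGT2B11 probe ILMN_1810233 lies near 0 and did not pass. They lie left of 0 for all 7 probes on the right.

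The remaining member probes gave no level. UGT2B7 (ILMN_1718833) was not detected on any of the 16 arrays, and nor was UGT2B17 probe ILMN_1801263. UGT2B15 probe ILMN_1739624 was detected on 1 array, vehicle parental replicate 1 of the DEX set, at 5.75. UGT2B28, which was seen in the DHT set, was detected on 1 array of the DEX set, DEX parental replicate 1, also at 5.75. UGT2B10 and UGT2B17 probe ILMN_2373670 were not detected on any array of the DHT set. Probes of 1 gene thus disagreed on whether UGT2B15 and UGT2B17 were present, and a probe at background says only that its own target stretch gave no signal.

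**Figure D4:**
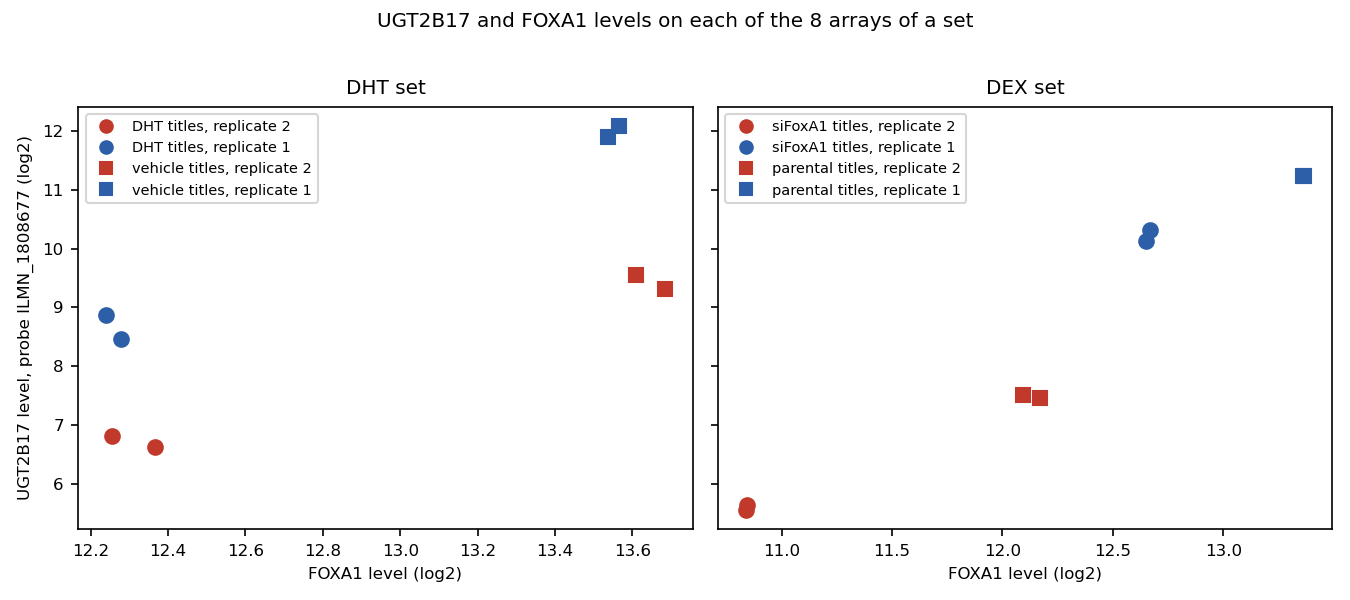
Level of UGT2B17 (probe ILMN_1808677) against level of FOXA1, both log2, on the 8 arrays of the DHT set (left) and of the DEX set (right); circles are DHT or siFoxA1 titles, squares vehicle or parental titles, red replicate 2 and blue replicate 1. In the DEX set both genes put the 4 pairs of arrays in the same order, and in the DHT set UGT2B17 also splits by replicate number at like FOXA1 levels.

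The supply of the co-substrate and the reactions around the UGT2B enzymes were read from lists of genes. Of 22 other glucuronidation genes, 4 passed the detection filter in the DHT set, and UGDH, which makes UDP-glucuronic acid, was among them. It had 10.71 and 10.59 on DHT titles of replicate 2 and 8.23 and 8.43 on DHT titles of replicate 1, against 9.13 and 8.99 on vehicle titles of replicate 2 and 7.79 and 8.0 on vehicle titles of replicate 1. UGDH was thus highest on the arrays where UGT2B17 was lowest and lowest on those where UGT2B17 was highest. Replicate 2 minus 1 was 1.74 ± 0.12 (limma adjusted p = 5.24e-11), the 1 call among the 4 genes, where 22.4% of all probes were called; their median was 0.04 against -0.02 over all genes. Within replicate 2, UGDH (1.59 ± 0.17) and UGP2, which makes UDP-glucose (0.80 ± 0.15), were the 2 of 4 that rose on DHT titles (21.4% of all probes were called in either direction), and limma called 0 of 4 in replicate 1 (15.3% of all probes). On DEX-set arrays UGDH lay between 9.08 and 9.60 on all arrays and was not called in these comparisons. UGP2 rose there on replicate 2 (0.67 ± 0.09) and on siFoxA1 titles of both numbers (0.48 ± 0.12 and 1.06 ± 0.12), and on replicate 2 UXS1, which turns UDP-glucuronic acid into UDP-xylose, rose while GUSB, the glucuronide hydrolase, and SLC35D2, a nucleotide sugar transporter, fell (2 of 6 higher and 2 of 6 lower, where 31.8% of all probes were called).

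Genes of androgen and steroid interconversion, 22 in the list, had 8 tested on the DHT-set arrays and 10 on those of the DEX set. On DHT titles AKR1C3, which reduces androstenedione to testosterone, was at least 1.24-fold higher in replicate 1 and at least 2.68-fold higher in replicate 2, bounds because no vehicle-titled array was detected. HSD17B11 rose on DHT titles of replicate 1 (1.20 ± 0.20) and on replicate 2 over both titles (1.52 ± 0.14), and HSD17B6 was at least 1.41-fold lower on DHT titles of replicate 1, where neither DHT-titled array was detected. Counts in the DHT set were 2 higher and 1 lower of 8 for titles in replicate 1, 1 higher in replicate 2 and 2 higher by replicate number, where 15.3%, 21.4% and 22.4% of all probes were called, so the last 2 counts are near or below the background. In the DEX set SRD5A1, the 5-alpha-reductase that makes dihydrotestosterone, had 11.56 and 11.42 on siFoxA1 titles against 8.02 and 8.06 on parental titles in replicate 2, and 11.76 and 11.81 against 8.50 and 8.16 in replicate 1. AKR1C3 rose on replicate 2 (2.31 ± 0.17), where the UGT2B probes fell. Of the 10 genes, 4 rose and 1 fell on siFoxA1 titles in replicate 1, 6 rose and 1 fell in replicate 2, and 3 rose and 3 fell by replicate number, where 28.2%, 31.4% and 31.8% of all probes were called.

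Steroid sulfation is the other conjugation route of androgens, and 4 of its 9 genes were tested in each set. PAPSS1, which makes the sulfate donor, fell on DHT titles by 0.52 in replicate 1 and by 1.03 in replicate 2, and on siFoxA1 titles of the DEX set by 0.43 and 0.77. It was the 1 of 4 called in each of these except replicate 1 of the DEX set, where SUMF1, which activates sulfatases, fell too. Among all probes, limma called 15.3% (replicate 1) and 21.4% (replicate 2) between DHT and vehicle titles. Between siFoxA1 and parental titles of DEX-set arrays it called 28.2% (replicate 1) and 31.4% (replicate 2). With 4 genes tested, these counts cannot be told apart from that background. Of 7 transporters that export conjugates, 2 were tested on DHT-set arrays and 3 on DEX-set arrays. ABCC4 fell on DHT titles of replicate 2 (-1.24 ± 0.14) and rose by replicate number (1.0 ± 0.10) in the DHT set. ABCC5, the other gene tested there, rose on DHT titles of replicate 2 (0.97 ± 0.19). Calls were thus 1 higher and 1 lower of 2 by that title, and 1 higher by number, where 21.4% and 22.4% of all probes were called. With DEX-set arrays ABCC4 rose on siFoxA1 titles of replicate 1 (0.59 ± 0.12) and fell on those of replicate 2 (-1.04 ± 0.12), an interaction of -1.62 ± 0.16 (limma adjusted p = 2.16e-06). ABCC5 rose on siFoxA1 titles of replicate 2 (0.41 ± 0.12). By replicate number of the DEX set ABCC5 (0.69 ± 0.09) and ABCC4 (0.22 ± 0.08) rose and ABCC3 fell (-0.80 ± 0.20). These were 2 higher and 1 lower of 3, where 31.8% of all probes were called.

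Among 18 factors known to act on UGT2B promoters, 7 were tested on DHT-set arrays and 8 on DEX-set arrays. Besides FOXA1, CEBPB, a basic leucine zipper factor, rose on DHT titles (0.63 ± 0.12 in replicate 1 and 0.54 ± 0.12 in replicate 2) and on siFoxA1 titles of replicate 1 in the DEX set (0.89 ± 0.10). Over both numbers of the DEX set CEBPB was higher on siFoxA1 titles by 0.64 ± 0.13. In the DHT set it was higher on replicate 2 by 0.56 ± 0.09. CEBPA fell on siFoxA1 titles of the DEX set (-0.85 ± 0.16 in replicate 1 and -1.19 ± 0.16 in replicate 2) and on DHT titles of replicate 2 (-0.55 ± 0.18). NFE2L2, the factor of the oxidative stress response, rose on replicate 2 in both sets (0.55 ± 0.15 in the DHT set, 0.50 ± 0.10 in the other). It also rose on siFoxA1 titles of the DEX set (0.66 ± 0.14 in replicate 1 and 0.96 ± 0.14 in replicate 2). PKNOX1 rose on DHT titles of replicate 2 (0.77 ± 0.25). In the DEX set PKNOX1 was higher on replicate 2 (0.37 ± 0.12) and fell on siFoxA1 titles of replicate 2 (-0.82 ± 0.17). The calls by title were 1 higher and 1 lower of 7 in replicate 1 and 2 higher and 2 lower in replicate 2 of the DHT set, and 3 higher and 2 lower of 8 and 2 higher and 3 lower in the DEX set. By replicate number they were 3 higher and 1 lower, and 2 higher and 1 lower. Over all probes 15.3% and 21.4% were called by title in the DHT set, 28.2% and 31.4% by title in the DEX set, and 22.4% and 31.8% by replicate number.

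Of the 5 blood and endothelium markers, 2 were tested in each set. CD68, a macrophage marker also made by tumour cells, was higher by 2.09 ± 0.22 and 3.03 ± 0.22 on DHT titles of replicates 1 and 2, and in the DEX set by 1.64 ± 0.10 on replicate 2 and by 2.23 ± 0.14 and 1.36 ± 0.14 on siFoxA1 titles of replicates 1 and 2. VWF, an endothelial marker, was at least 1.65-fold lower on DHT titles of replicate 2, and HBB, a globin of red cells, was at least 8.35-fold higher on siFoxA1 titles of replicate 2 in the DEX set. By replicate number in the DHT set CD68 was higher on replicate 2 by 0.99 ± 0.16. VWF was called higher there too (limma adjusted p = 0.00649), without a fold, as no replicate 1 array was detected and the bound fell under 1. In the DEX set HBB was at least 2.31-fold higher on replicate 2. Among liver markers of the DEX set 1 of 2 tested was called, APOA1, an apolipoprotein. It was lower by number (-0.85 ± 0.20) and on siFoxA1 titles of replicate 1 (-1.10 ± 0.29), and at least 2.22-fold lower on those of replicate 2, where neither array was detected. PTPRC, the pan-leukocyte marker, was not detected in either set. The summed level of the 5 blood and endothelium markers ranged from 138 to 1029 over DHT-set arrays and from 144 to 1991 over DEX-set arrays, with PTPRC and HBB not detected in the DHT set and PTPRC, PECAM1 and VWF not detected in the DEX set. Calls were common over all probes, so a count of calls among 2 tested markers is not set apart from the background. By DHT title limma called 15.3% (replicate 1) and 21.4% (replicate 2), and by siFoxA1 title of DEX-set arrays 28.2% and 31.4%. Replicate 2 against 1 gave 22.4% among DHT-set arrays and 31.8% among DEX-set arrays. Of 9 tested luminal markers, 5 were called higher and 2 lower by replicate number in the DHT set, and 4 higher and 4 lower in the DEX set. By DHT title 3 were higher and 2 lower in replicate 1, and 3 higher and 3 lower in replicate 2. By siFoxA1 title of the DEX set 1 was higher and 3 lower in replicate 1, and 1 higher and 6 lower in replicate 2. The part of luminal, blood, endothelium and liver markers in the UGT2B differences was not tested.

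The genes most like UGT2B17 (ILMN_1808677) over the 8 arrays, among probes with 1 symbol and an SD of at least 0.5, were ADCY1, LMNB1, UBE2T, ITGB1BP1 and DDC in the DHT set, with Pearson r of 0.983 to 0.99. DDC, the aromatic amino acid decarboxylase, spanned 8.23 to 12.52, and LMNB1, a nuclear lamin, spanned 7.04 to 8.74. Over the DEX-set arrays they were ACP3, the prostatic acid phosphatase, SLC12A2, PHGDH, TMSB15A and NUSAP1, with r of 0.994 to 0.997, and ACP3 spanned 7.33 to 13.40. These are descriptions over 8 arrays that fall into 4 close pairs, so the points are not independent, and no gene is in both lists.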

How the data were processed

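The samples were grouped by their titles, and scanner columns were assigned by the array position each label states. The deposited files of the scanner give, per the file headers, the mean bead intensity of each probe on the linear scale, without background subtraction or normalization, and a detection p-value against the negative controls of its array. They were exported from BeadStudio, per the submitters' processing notes. The authors' tables of background-subtracted, quantile-normalized intensity served to name probes (rows joined by their ranks on the 8 arrays) and as an alternative. Levels are log2 values from limma's neqc (version 3.58.1, R 4.3.3), with negative controls inferred from the detection p and an offset of 16. All 13094 and 18391 probes past the filter were fitted with 4 means per set, by titles or by title and replicate number, with eBayes and an intensity trend, two-sided; a call is an adjusted p under 0.05.

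A fold against a group with no detected array was bounded by the lowest detected level of those arrays. With 1 probe per gene, the brightest was taken for the lists. The members, lists and second division were chosen with earlier results of these data known. Named genes are all member probes, FOXA1, FKBP5, up to 4 called genes of a list per comparison, and the 5 genes most like UGT2B17. Motifs were searched with exact letters, and promoters aligned globally (Biopython 1.88). The fit was tested on simulated data. The array number of 2 per group limits the precision. The study's design calls the replicates biological duplicates.

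Arrays with the same number deviated together from their group means (DHT set r between 0.414 and 0.713, DEX set r between 0.494 and 0.678). Alternatives were an offset of 50, no background correction, median scaling, the authors' values floored at 16, 2 other detection filters, 1 probe per gene, each array left out, and a replicate block or the left-out title as a term.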

Additional observations from a re-analysis of the deposited data

Results flagged for a closer look

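The drop of UGT2B17 (ILMN_1808677) on siFoxA1 against parental titles of the DEX set differed between replicate numbers, by an interaction of -0.88 ± 0.21 (limma adjusted p = 0.0168). The siFoxA1 minus parental difference was -1.89 ± 0.15 in replicate 2 and -1.02 ± 0.15 in replicate 1. FOXA1 had an interaction of -0.58 ± 0.13 (limma adjusted p = 0.00958) in the same direction, and its part in that of UGT2B17 was not tested. The other bright UGT2B17 probe, ILMN_1752214, had an interaction of -0.03. That of ILMN_1808677 did not pass with an offset of 50 (adjusted p = 0.316), was 0.033 without background correction (adjusted p = 0.949), and did not pass when vehicle parental, DEX parental or DEX siFoxA1 replicate 1 was left out (adjusted p between 0.0896 and 0.139).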

How the results depend on the processing

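Labels repeat the numbers 1 and 2 in every group, so the labelled groups were also fitted with a replicate block. With it, DHT minus vehicle passed for 6 of 6 UGT2B probes on parental titles and 5 of 6 on siFoxA1 titles (limma adjusted p from 1.06e-05 to 0.0421 for those that passed), and siFoxA1 minus parental titles of the DEX set for 4 of 7, in place of 0 in each. It changed no other call of the labelled groups. Only 2 pairs exist per comparison, and no label says that a number marks a shared day or batch.

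With probes detected on all 8 arrays, 1 member probe was left among DHT-set arrays and 0 among DEX-set arrays, so the counts became 1 for the replicate and both title comparisons of the DHT set and 0 for those of the DEX set and its interaction. With 1 probe per gene the counts were 3 for DHT titles in replicate 1, 4 for replicate number in the DEX set and 2 for siFoxA1 titles in replicate 1, since fewer probes were tested. The DHT title by replicate number interaction counted 4 members with an offset of 50 and without background correction, and 1 with median scaling, with 1 probe per gene and with the siFoxA1 title as a term. The DEX-set interaction counted 0 with an offset of 50 and without background correction, where that of UGT2B17 (ILMN_1808677) turned to 0.033. The cause of these last changes was not tested.

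With single arrays left out, siFoxA1 titles in replicate 1 of the DEX set counted 2 to 4, the DEX-set interaction 0 to 1 and the DHT-set interaction 0 to 1. Replicate 2 minus 1 of UGT2B11 (ILMN_1810233) in the DHT set ran from -0.17 to 0.42, and was -0.12 on DHT titles only. The siFoxA1 difference of UGT2B11 (ILMN_2162819) in replicate 2 of the DEX set ran from -0.36 to 0.12. Apart from the interaction of UGT2B17, no called difference of a member probe changed direction under an alternative, though 24 calls of single probes were lost, most often UGT2B15. UGT2B7 was detected on no array, and probes of each other member were not detected in at least 1 group, where only bounds can be given.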
